A study of Mus musculus with 12 samples.

Results

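The CXC chemokines were followed in whole livers of mice with concanavalin A (Con A) hepatitis, with or without infusion of human Wharton's jelly mesenchymal stem cells (hWJ-MSCs). The members were the genes named Cxcl1, Cxcl2, Cxcl9, Cxcl10, Cxcl12, Cxcl13, Cxcl14 and Cxcl16, and all 8 were found among the 11289 genes of the table. Con A is a plant lectin that activates T cells, and its intravenous injection gives an acute immune hepatitis. The 12 male C57BL/6J mice formed 3 groups of 4, aged 8 to 10 weeks by the labels, while the study's methods give a younger age. The control group received no Con A. The Con A + PBS group received 15 mg/kg Con A by the tail vein and then phosphate-buffered saline, and the Con A + hWJ-MSCs group received the same dose of Con A and, 30 min later, hWJ-MSCs in its place. Livers were taken 24 h after Con A, a single time point. The cells came from human umbilical cord, and no group received them without Con A, so their effect on a liver without hepatitis was not measured. The labels give more cells per mouse than the study's methods do.

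CXC chemokines are small secreted proteins that steer leukocytes through G protein-coupled receptors. Cxcl1 and Cxcl2 act on Cxcr2 and draw neutrophils. Cxcl9 and Cxcl10, which interferon gamma induces, act on Cxcr3 and draw activated T cells and NK cells. Cxcl12 and Cxcl13 are mainly homeostatic ligands, of Cxcr4 and Cxcr5, and organize the traffic of many leukocytes and of B cells. Cxcl14 is a constitutively made member of epithelia and stroma, and Cxcl16 is made as a membrane-bound protein that binds Cxcr6 on T and NKT cells. In the liver these ligands come from hepatocytes, sinusoidal endothelial cells, macrophages and stellate cells. In whole liver RNA, fewer cells of a type and less RNA per cell cannot be told apart.

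Of the 8 genes, 5 lie on chromosome 5 in 3 places. By the positions in the table (mm10), Cxcl1 (chr5:90891241-90893115, plus strand) ended 10784 bases before Cxcl2 (chr5:90903899-90905909, plus strand). Cxcl9 (chr5:92321331-92328079) and Cxcl10 (chr5:92346638-92348882), both on the minus strand, were 18559 bases apart. Cxcl13 was at chr5:95956928-95961067 on the plus strand. The other three were at chr6:117168535-117175069 on the plus strand (Cxcl12), chr13:56288647-56296551 on the minus strand (Cxcl14) and chr11:70453983-70459984 on the minus strand (Cxcl16). All are spliced genes, with 3 exons in Cxcl12, 5 in Cxcl16 and 4 in each of the others in GENCODE M21.

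The proximal promoters of both chromosome 5 pairs are printed because these 4 genes had the largest increases after Con A. The sequences are from RefSeq (GRCm38.p6), which held a promoter for 7 of the 8 genes, with no entry matched for Cxcl16. Each runs 5′ to 3′ on the gene's strand, from 250 to 31 bases before the RefSeq start. Capitals mark matches to 4 motifs on either strand. The first 2 are the kappaB consensus bound by NF-κB and the interferon-stimulated response element (ISRE, searched as GAAA repeated after any 2 bases). The others are the STAT-binding GAS element (TTCNNNGAA) and the letters TATAAA. The windows were chr5:90890995-90891214 (plus strand) for Cxcl1, chr5:90903649-90903868 (plus strand) for Cxcl2, chr5:92328110-92328329 (minus strand) for Cxcl9 and chr5:92348920-92349139 (minus strand) for Cxcl10.
Cxcl1: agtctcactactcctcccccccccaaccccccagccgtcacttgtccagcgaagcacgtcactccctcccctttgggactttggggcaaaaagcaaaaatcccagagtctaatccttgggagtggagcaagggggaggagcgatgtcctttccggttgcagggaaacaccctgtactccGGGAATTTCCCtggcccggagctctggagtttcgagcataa
Cxcl2: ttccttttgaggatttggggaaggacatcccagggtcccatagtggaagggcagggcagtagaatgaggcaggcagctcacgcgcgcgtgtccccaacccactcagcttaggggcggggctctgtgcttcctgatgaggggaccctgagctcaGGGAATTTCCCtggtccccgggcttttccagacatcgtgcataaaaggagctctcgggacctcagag
Cxcl9: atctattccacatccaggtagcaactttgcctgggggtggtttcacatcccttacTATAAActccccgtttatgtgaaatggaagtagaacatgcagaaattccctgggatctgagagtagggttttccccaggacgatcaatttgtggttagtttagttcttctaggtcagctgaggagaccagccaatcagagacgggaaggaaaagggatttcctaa
Cxcl10: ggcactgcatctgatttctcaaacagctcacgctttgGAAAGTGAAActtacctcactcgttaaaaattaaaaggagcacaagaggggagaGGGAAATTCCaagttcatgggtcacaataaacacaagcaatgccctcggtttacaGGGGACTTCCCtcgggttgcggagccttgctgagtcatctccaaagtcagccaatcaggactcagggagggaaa
Cxcl1 and Cxcl2 carried the same match, GGGAATTTCCC, which reads as the kappaB consensus on both strands, 71 to 61 bases before the start of Cxcl1 and 97 to 87 bases before that of Cxcl2. Cxcl10 had GGGAAATTCC 159 to 150 bases before its start, GGGGACTTCCC from 104 to 94 with overlapping matches on both strands, and the ISRE match GAAAGTGAAA from 213 to 204. Cxcl9 had none of the kappaB, ISRE or GAS matches in this window, and a TATAAA from 195 to 190. Among the other members, Cxcl14 had an ISRE match from 172 to 163 and a GAS match from 191 to 183, Cxcl13 had a TATAAA from 46 to 41, and Cxcl12 had none of the 4 motifs. Of all 32851 RefSeq promoters, 6.34% held the kappaB consensus, 2.63% the ISRE, 6.27% the GAS element and 9.95% TATAAA in the same window. A match describes the letters only and does not show that a factor was bound.

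**Figure D1:**
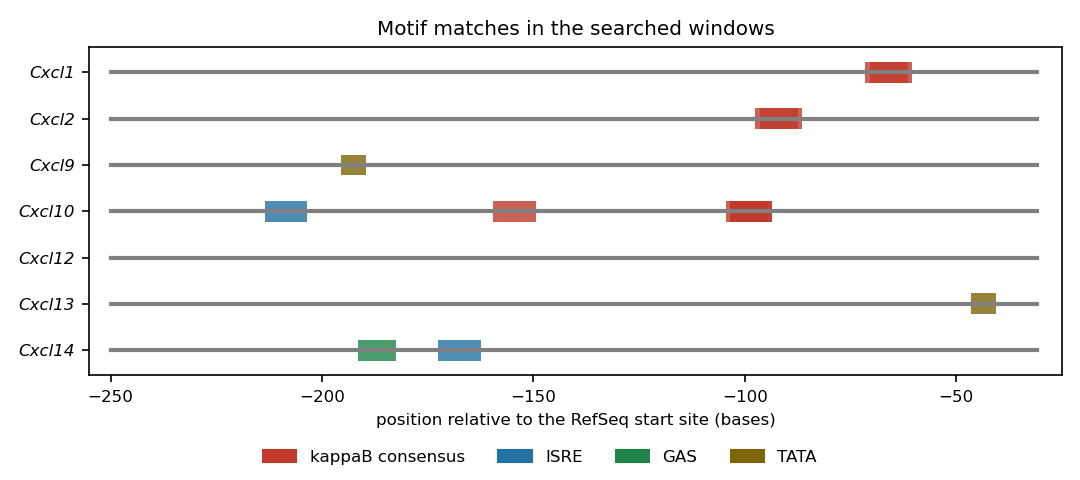
Position of motif matches in the window of 220 bases before each gene's RefSeq start, in bases before the start, for the 7 members with a RefSeq promoter. Cxcl1 and Cxcl2 each have a kappaB match on both strands, Cxcl10 has 2 kappaB places and an ISRE match, and Cxcl12 has no match.

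The deposited table gives 1 whole number per gene and mouse, called a score here, which the authors had normalized between mice. The totals of the 12 mice were between 17649654 and 17657159, a range of 0.0425% of their median, so they do not show how deeply each liver was sequenced, which is unknown. Alb, the albumin gene of hepatocytes, stood at the highest score, 341028, in all 12 mice. Scores are not given per length of transcript, so levels were compared between mice and not between genes. Each gene of the table reached 64 in at least 2 mice, and 3 of the 8 members did so in a single group: Cxcl2 in Con A + PBS mice, Cxcl13 in control mice and Cxcl14 in Con A + hWJ-MSCs mice. A gene that is in the table only through the group where it is high had to differ there, so the counts below describe the genes in the table, and the tests of these 3 are no separate support for that difference. The other 5 reached 64 in at least 2 mice of every group. Changes are given as differences in log2(score + 1), which understate the change of genes with low scores. A gene was called where it differed by more than 1.5-fold with a limma p, adjusted by Benjamini-Hochberg over all genes, of less than 0.05.

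After Con A, 5 of the 8 CXC chemokines rose (Cxcl1, Cxcl2, Cxcl9, Cxcl10 and Cxcl16), 2 fell (Cxcl12 and Cxcl13) and Cxcl14 was not called. Over all genes 38.8% were called in this comparison, 19.5% as higher and 19.2% as lower. In 5 of the 8 genes every Con A + PBS mouse was above every control mouse, and in 2 every one was below, against 27.1% and 23.4% of all genes. The median change of the 8 genes was 1.72 on the log2 scale, against 0.05 over all genes. With hWJ-MSCs, compared with Con A + PBS, 3 of the 8 fell (Cxcl2, Cxcl9 and Cxcl10) and none of the others was called, while 8.58% of all genes were called, 4.38% as lower and 4.20% as higher. The median change there was -0.61 for the 8 genes and 0.00 over all genes. The groups did not overlap in 3 of the 8, Cxcl2, Cxcl10 and Cxcl16, all lower with hWJ-MSCs, against 11.6% of all genes lower and 11.9% higher without overlap. The 3 calls depended on single mice. None of them held without Con A + PBS mouse 1, without Con A + hWJ-MSCs mouse 2 or without Con A + hWJ-MSCs mouse 3, and without Con A + PBS mouse 4 only Cxcl10 was called, with adjusted p-values of the lost calls between 0.0503 and 0.0761. With each mouse left out in turn the changes lay between -3.13 and -2.39 for Cxcl2, between -2.40 and -1.68 for Cxcl9 and between -2.86 and -1.99 for Cxcl10.

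**Figure D2:**
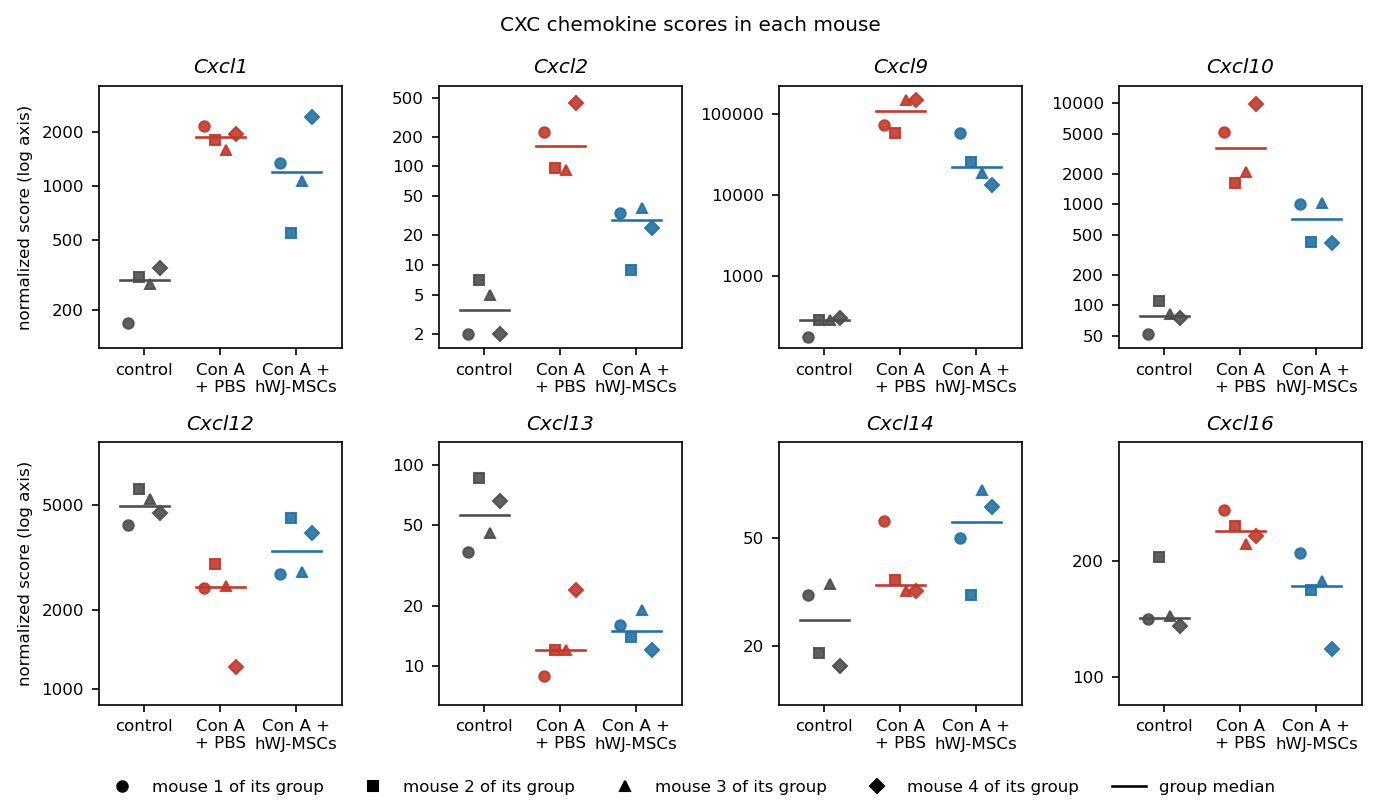
Normalized score of each CXC chemokine in each of the 12 mice (y axis, log scale, separate for each gene), by group on the x axis, with the symbol for the mouse number in its group and a line at the group median. Cxcl2 and Cxcl10 form 3 separate levels, with the Con A + hWJ-MSCs mice between the control and the Con A + PBS mice.

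The neutrophil-attracting ligands rose after Con A. The scores of Cxcl1 were 170, 308, 282 and 348 in the control mice, 2176, 1806, 1598 and 1958 in the Con A + PBS mice, and 1342, 547, 1064 and 2432 in the Con A + hWJ-MSCs mice, in the order of the mouse numbers. Every mouse given Con A was above every control mouse, and hWJ-MSCs mouse 4 was above all the Con A + PBS mice while mouse 2 of that group was the lowest of those given Con A. The mean went from 277 ± 76.3 (SD, n = 4) in the control group to 1884.5 ± 244 with Con A + PBS, a log2 change of 2.80 (SE 0.36, limma adjusted p = 4.58e-05), or 6.97-fold. With hWJ-MSCs the mean was 1346 ± 795 (SD, n = 4), and the change from Con A + PBS was -0.67 with a 95% interval from -1.45 to 0.10 (limma adjusted p = 0.199), so no change was called. Without 1 mouse in turn this change lay between -1.02, without hWJ-MSCs mouse 4 (called, limma adjusted p = 0.0421), and -0.31, without hWJ-MSCs mouse 2 (limma adjusted p = 0.506).

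Cxcl2, the second Cxcr2 ligand, was near the bottom of the scale in controls, with scores of 2, 7, 5 and 2. It was at 223, 96, 92 and 436 in the Con A + PBS mice and at 34, 9, 38 and 24 in the Con A + hWJ-MSCs mice. The 3 groups did not overlap at any point, and only the Con A + PBS mice carried the gene past 64. The rise after Con A was 5.24 on the log2 scale (SE 0.59, limma adjusted p = 1.89e-05), the 51st largest of all 11289 genes. With a pseudocount of 10 in place of 1 this value was 3.73, since the control scores were so low. With hWJ-MSCs Cxcl2 fell by 2.83 on the log2 scale, 7.13-fold (limma adjusted p = 0.0225), and only 9 genes fell further. It was still 2.41 above control (limma adjusted p = 0.00665), a call that quantile normalization ended (1.27, limma adjusted p = 0.118). Of the 31-base words in its transcripts, 7.41% also occur in Cxcl3, its close paralog, so that part of its reads could have been shared between both.

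Cxcl2 is in the table only through the Con A + PBS mice, so the ratio of both Cxcr2 ligands had to be low in that group and is given as a description. The log2 ratio of Cxcl1 to Cxcl2 within each mouse was 5.83, 5.27, 5.56 and 6.86 in the control group, 3.28, 4.22, 4.10 and 2.16 with Con A + PBS, and 5.26, 5.78, 4.77 and 6.60 with hWJ-MSCs. All 4 Con A + PBS mice lay below all 8 others. The ratio was 2.44 lower with Con A + PBS than in control and 2.16 higher with hWJ-MSCs than with Con A + PBS (two-sided exact permutation tests, p = 0.0286 each, the smallest that 4 against 4 allows, and 0.0429 adjusted over 6 ratio tests). As Cxcl2 is in the table only through the Con A + PBS mice, these p-values are no support for a difference. Between hWJ-MSCs and control the ratio differed by -0.28 (exact permutation p = 0.514). With a pseudocount of 10 the calls were lost, at -0.97 and 1.75 (exact permutation, adjusted p = 0.103 and 0.0571), and without Con A + PBS mouse 4 neither of the ratio calls held.

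Of 12 listed CXC chemokine receptor symbols the table held Cxcr2, the receptor of both ligands on neutrophils. Its scores were 10, 14, 6 and 9 in the control group, 80, 69, 64 and 56 with Con A + PBS, and 69, 32, 45 and 46 with hWJ-MSCs. Its change after Con A was 2.71 (limma adjusted p = 2.16e-05), but no control mouse reached 64, so the gene is in the table only through mice given Con A. With hWJ-MSCs it was -0.52 from Con A + PBS (limma adjusted p = 0.256), which was not called. The 10 neutrophil markers in the table, of 14 listed, were all called as higher after Con A, but none of them reached 64 in 2 control mice, so all were in the table through mice given Con A and the count is no support for a rise. The largest changes were Ngp (6.97, a secondary granule protein), Ltf (6.24, lactoferrin), Il1r2 (6.07, a decoy receptor of interleukin-1) and S100a8 (5.06, limma adjusted p = 7.64e-05, a calcium-binding protein of neutrophil cytoplasm). None of the 10 was called with hWJ-MSCs, with changes of -1.38, -0.81, -0.98 and -0.02 for these 4. Their summed score was 119 to 155 in control mice, 1492 to 2390 with Con A + PBS and 999 to 2099 with hWJ-MSCs, and 5 of the 10 were at 0 in at least 1 control mouse. The part of these markers in the changes of Cxcl1 and Cxcl2 was not tested.

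**Figure D3:**
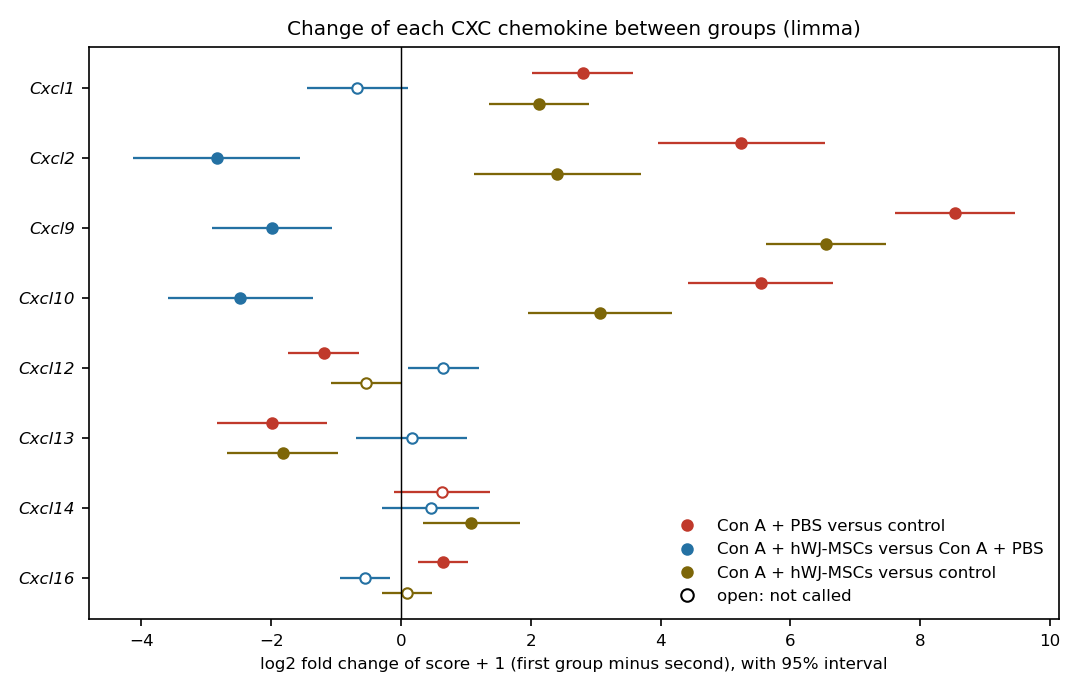
Change of each CXC chemokine on the log2(score + 1) scale in the 3 comparisons, with 95% intervals, where filled points mark called genes. Cxcl9 has the largest rise after Con A, 8.53, and Cxcl2 the largest fall with hWJ-MSCs, 2.83.

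Cxcl9 and Cxcl10, the ligands that recruit activated T cells, had the largest increases of the family on the log2(score + 1) scale. Cxcl2 (5.24) was close to Cxcl10 (5.54), and its low control scores make its value the more understated. Cxcl9 scored 181, 292, 294 and 310 in the control mice, 72750, 58152, 147850 and 147850 with Con A + PBS, and 58152, 25819, 18931 and 13230 with hWJ-MSCs. The Con A groups were both far above control and touched at the tied value of 58152. The rise after Con A was 8.53 on the log2 scale (SE 0.42, limma adjusted p = 4.86e-08), or 371-fold, and only 3 genes rose more. At the top of the scale the scores take few values, so the 2 mice at 147850 need not have had equal amounts of Cxcl9 RNA. In the control mice 6099 to 7861 genes had a higher score than Cxcl9, in the Con A + PBS mice 14 to 34 genes did, and with hWJ-MSCs 34 to 154 did. With hWJ-MSCs it fell by 1.99 from Con A + PBS, 3.96-fold (limma adjusted p = 0.0235), but the exact permutation test of the same values, with n = 4 a group, gave p = 0.0571. It stayed 6.55 above control with hWJ-MSCs (limma adjusted p = 7.13e-07), a 93.6-fold difference.

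Cxcl10 scored 52, 110, 82 and 74 in the control group, 5134, 1626, 2078 and 9858 with Con A + PBS, and 1010, 425, 1022 and 408 with hWJ-MSCs. As for Cxcl2, the 3 groups were fully separate. Within the Con A + PBS group mouse 4 was the highest for both Cxcl2 and Cxcl10, and mouse 1 was second. Cxcl10 rose by 5.54 after Con A (SE 0.52, limma adjusted p = 4.26e-06), or 46.5-fold. With hWJ-MSCs it fell by 2.47, 5.55-fold (limma adjusted p = 0.0224), and was 3.07 above control (limma adjusted p = 0.000623), or 8.38-fold. Part of its transcript, 9.68% of the 31-base words, also occurs, read on either strand, in Art3.

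The log2 ratio of Cxcl9 to Cxcl10 was between 1.40 and 2.05 in control mice, between 3.82 and 6.15 with Con A + PBS, and between 4.21 and 5.92 with hWJ-MSCs. It was 3.00 higher with Con A + PBS and 3.48 higher with hWJ-MSCs than in control (exact permutation p = 0.0286 each, 0.0429 adjusted over the 6 ratio tests), so Cxcl9 rose more than Cxcl10. Between both Con A groups the ratio differed by 0.49 (exact permutation p = 0.514). Without Con A + PBS mouse 4 the first of these differences was 3.28 with an adjusted p of 0.0571 by the exact permutation test. With a pseudocount of 10 the differences from control were 3.10 and 3.57, each with an adjusted p of 0.0571 by the exact permutation test.

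**Figure D4:**
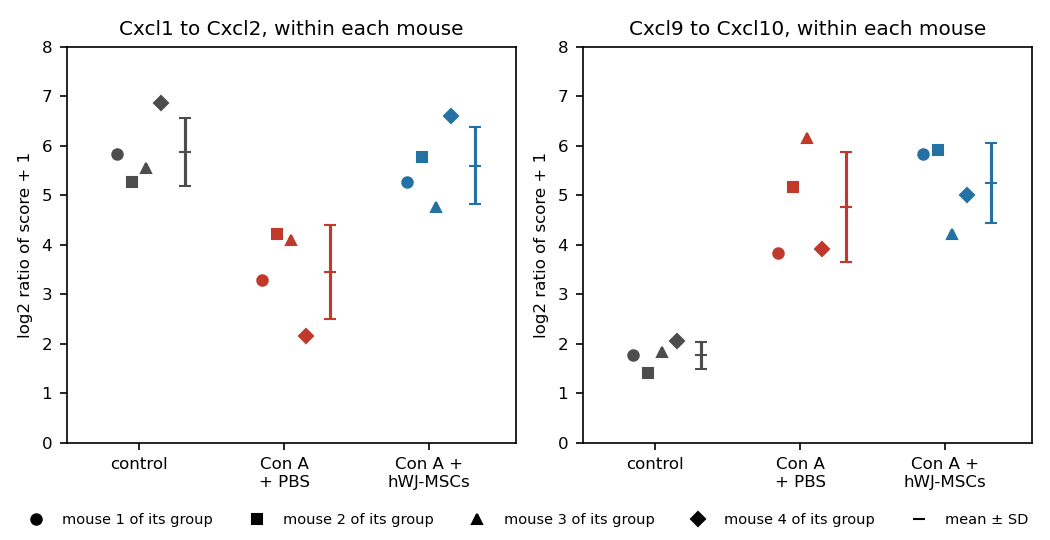
Log2 ratio of Cxcl1 to Cxcl2 and of Cxcl9 to Cxcl10 in each mouse, from scores with 1 added, by group, with bars for the group mean ± SD. The Con A + PBS mice are lowest for Cxcl1 to Cxcl2, between 2.16 and 4.22, and both Con A groups are above control for Cxcl9 to Cxcl10.

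Genes of interferon gamma signaling, the pathway known to induce Cxcl9 and Cxcl10, mostly rose after Con A. Of 11 in the table, of 13 listed, 8 rose after Con A and none fell, against 19.5% and 19.2% of all genes. The median change was 1.40, against 0.05 over all genes. Jak1 (0.34), Jak2 (0.41) and Cd74 (-0.23), named here after their values were seen, were not called. Gbp2, an interferon-induced GTPase, rose by 5.99 (limma adjusted p = 1.63e-07), and Socs1, a feedback inhibitor of JAK kinases, by 5.46 (limma adjusted p = 1.02e-07), though Socs1 was under 64 in every control mouse and had to be higher after Con A to be in the table. The transcription factor Irf8 rose by 2.01, and the receptor chain Ifngr1, the first gene of the list found in the table, by 0.73 (limma adjusted p = 0.00129). With hWJ-MSCs, Socs1 (-1.44, limma adjusted p = 0.0224) and Gbp2 (-1.18, limma adjusted p = 0.0468) fell, and the other 9 were not called, Irf8 among them (-0.76, limma adjusted p = 0.0603). The list had a median of -0.54 there, and 4.38% of all genes were called as lower in this comparison. The part of these genes in the changes of Cxcl9 and Cxcl10 was not tested.

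Of 7 T and NK cell markers in the table, of 19 listed, 6 rose after Con A and 1 fell. The 6 that rose did not reach 64 in any control mouse and were in the table through mice given Con A, so this count too is no support for a rise. Gzmb, the cytotoxic protease granzyme B, rose by 5.32 (limma adjusted p = 4.86e-08), Cd28, a costimulatory receptor, by 4.75, Cd8a, the coreceptor of cytotoxic T cells, by 3.67, and Lck, the kinase of the T cell receptor, by 2.67. With hWJ-MSCs these were at -0.40, -0.39, -0.13 and -0.32 from Con A + PBS, none called, and only Il2rb, a chain of the interleukin-2 receptor named here after its value was seen, fell (-1.01, limma adjusted p = 0.0361), a gene that reached 64 in all 4 Con A + PBS mice and in only 1 other. Il2rb is thus in the table through the Con A + PBS mice, and the test of its fall is no separate support. The summed score of the 7 markers was 188 to 270 in control mice, 736 to 1310 with Con A + PBS and 777 to 1040 with hWJ-MSCs. In control mice 2 of the 7 were at 0 in at least 1 mouse. Their part in the changes of Cxcl9 and Cxcl10 was not tested.

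Genes of tumor necrosis factor, interleukin-1 and interleukin-17 signaling, which can induce Cxcl1 and Cxcl2 through NF-κB, mostly rose after Con A. Of 17 in the table, of 20 listed, 13 rose and 1 fell (median 1.14), against 19.5% and 19.2% of all genes. In 3 of the 13, Tnfaip3, Relb and Nfkbie, fewer than 2 control mice reached 64, so their rise was a condition of being in the table, as was the fall of Il1a, which reached 64 only in control mice. Tnfaip3, an NF-κB target that limits the pathway, rose by 3.65 (limma adjusted p = 1.06e-06), the interleukin-1 receptor Il1r1 by 2.17, and the NF-κB subunits Relb and Nfkb2 by 1.71 and 1.56. With hWJ-MSCs 5 of the 17 fell and none rose (median -0.50), against 4.38% and 4.20% of all genes. Tnfaip3 (-2.18, limma adjusted p = 0.00985), Relb (-1.004, limma adjusted p = 0.0224) and Nfkb2 (-0.83, limma adjusted p = 0.0199) were among the 5. Il1r1 was not called (-0.56, limma adjusted p = 0.219). The first gene of the list found in the table, the receptor Tnfrsf1a, rose by 0.79 after Con A and was at -0.29 with hWJ-MSCs, not called. The part of these genes in the changes of Cxcl1 and Cxcl2 was not tested.

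**Figure D5:**
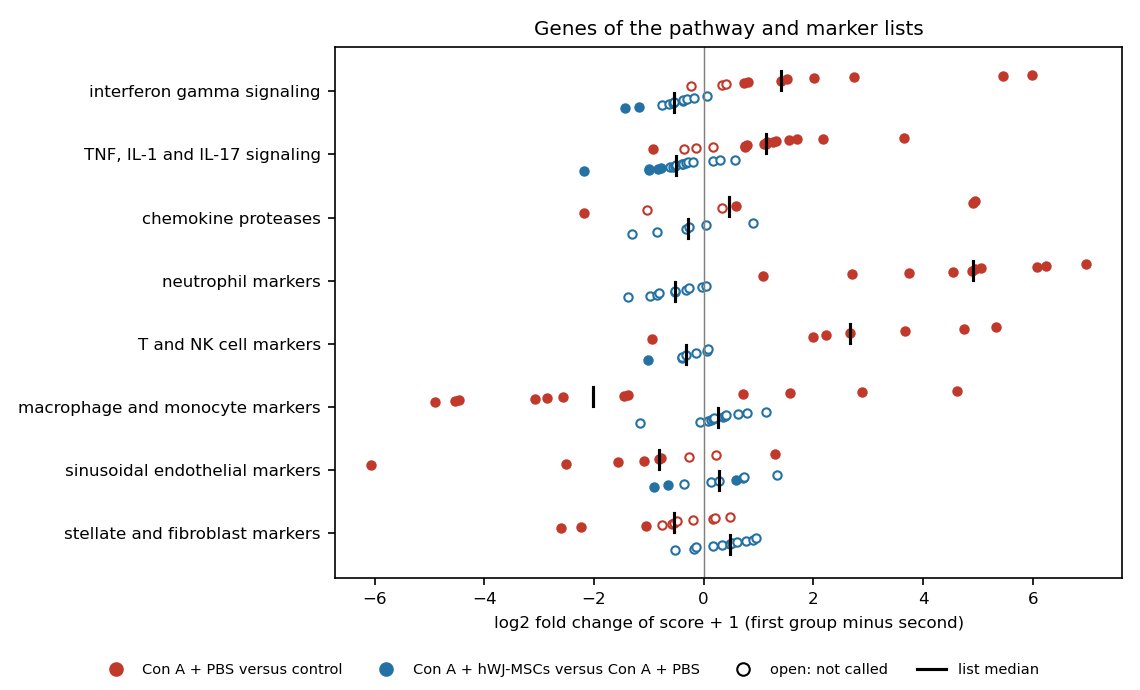
Genes of the pathway and marker lists on the log2(score + 1) scale, 1 point per gene, with the change after Con A (Con A + PBS minus control) and the change with the cells (Con A + hWJ-MSCs minus Con A + PBS) side by side. The 10 neutrophil markers, none of which reached 64 in 2 control mice, are above 0 after Con A, while most macrophage and sinusoidal endothelial markers are below.

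The homeostatic ligands Cxcl12 and Cxcl13 went the other way after Con A. Cxcl12, which retains and guides cells with Cxcr4, scored 4202, 5754, 5256 and 4663 in the control mice, 2421, 2978, 2474 and 1218 with Con A + PBS, and 2734, 4466, 2792 and 3922 with hWJ-MSCs. All Con A + PBS mice were below all control mice, and the hWJ-MSCs mice spanned the gap between them. Cxcl12 fell by 1.19 after Con A, 2.28-fold (SE 0.25, limma adjusted p = 0.00168). With hWJ-MSCs it was 0.66 above Con A + PBS with a 95% interval from 0.107 to 1.203 (limma adjusted p = 0.0905), and it was -0.54 from control with an interval from -1.09 to 0.01 (limma adjusted p = 0.109), so neither difference was called. The first of these was 0.81 and called without Con A + PBS mouse 2 (limma adjusted p = 0.0475), and 0.38 without Con A + PBS mouse 4 (limma adjusted p = 0.198).

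Cxcl13, the B cell attractant of lymphoid follicles, scored 37, 86, 46 and 66 in the control group, 9, 12, 12 and 24 with Con A + PBS, and 16, 14, 19 and 12 with hWJ-MSCs. Every mouse given Con A was below every control mouse, and the 2 groups given Con A lay in the same range. Only control mice, 2 of them, reached 64. The fall after Con A was 1.99 on the log2 scale (SE 0.39, limma adjusted p = 0.00104), 3.96-fold. Between both Con A groups the change was 0.16 with an interval from -0.69 to 1.01 (limma adjusted p = 0.798), and Cxcl13 was still below control with hWJ-MSCs (-1.82, limma adjusted p = 0.003). None of the 7 listed B cell markers was found by name in the table.

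The genes listed as regulators of Cxcl12 and Cxcl13 that were in the table are described beside these changes. Of all genes 19.5% were called as higher after Con A. Of 5 genes of Cxcl12 regulation in the table, of 7 listed, 4 rose after Con A: Hmox1 (2.04, heme oxygenase), Hif1a (1.95, the hypoxia factor), Itgb1 (0.82, an integrin) and Epas1 (0.63, limma adjusted p = 0.0388, a second hypoxia factor). With hWJ-MSCs Hif1a fell (-1.59, limma adjusted p = 0.0332), and Hmox1 was at -1.24 (limma adjusted p = 0.0552), not called. Of the 3 genes in the table, of 7 listed, for the lymphotoxin pathway that drives Cxcl13 in lymphoid tissue, all rose after Con A. Relb rose as above, Map3k14 (the kinase NIK) by 0.87 and the receptor Ltbr by 0.83 (limma adjusted p = 0.000277). Relb reached 64 in only 1 control mouse, so it had to be higher after Con A to be in the table. The part of these genes in the changes of Cxcl12 and Cxcl13 was not tested.

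The markers of endothelial cells, macrophages, stellate cells and hepatocytes, which can make these ligands, are given beside these changes. Of all genes 19.5% rose and 19.2% fell after Con A. Clec4g and Tek of the endothelial list and Vsig4, Timd4 and Emr1 of the macrophage list reached 64 in 2 control mice or more but not in 2 mice given Con A, so their falls were a condition of being in the table. The monocyte gene Ly6c2, under 64 in every control mouse, had to rise. Of 9 sinusoidal endothelial markers, 6 fell and 1 rose, with Clec4g (a lectin of these cells) at -6.07, Kdr (the VEGF receptor) at -2.52, Fcgr2b (an Fc receptor) at -1.55 and Stab2 (a scavenger receptor) at -0.79, while Lyve1 (the hyaluronan receptor) rose by 1.29. With hWJ-MSCs 1 of the 9 rose and 2 fell, against 4.20% and 4.38% of all genes. Stab2 rose by 0.59 (limma adjusted p = 0.0199) and Lyve1 fell by 0.90 (limma adjusted p = 0.0224). Cdh5, named here after its value was seen, fell by 0.66 (limma adjusted p = 0.0443). The summed score of the 9 markers was 3314 to 4709 in control mice, 1666 to 2362 with Con A + PBS and 2002 to 2646 with hWJ-MSCs. Of 12 macrophage and monocyte markers in the table, of 13 listed, 8 fell and 4 rose. The Kupffer cell genes Clec4f (-4.90), Vsig4 (-4.54) and Cd5l (-4.46) fell and Ly6c2 rose (4.62), and none of the 12 was called with hWJ-MSCs. Their sum was 4518 to 7442 in control mice, 2121 to 2559 with Con A + PBS and 1285 to 2925 with hWJ-MSCs. Of 11 stellate and fibroblast markers in the table, of 12 listed, 3 fell, Reln (-2.60), Lrat (-2.24, the enzyme of retinyl ester storage) and Pdgfrb (-1.06, a growth factor receptor), a share nearer to that of all genes, and their sums overlapped, at 5521 to 8594 in control mice, 6684 to 7740 with Con A + PBS and 5052 to 10864 with hWJ-MSCs. Of 9 hepatocyte markers 4 fell after Con A and none rose, Ass1 (-2.44, an enzyme of the urea cycle), Cyp2e1 (-2.43, a cytochrome P450), Apoa1 (-1.73, an apolipoprotein) and Ttr (-1.55, the thyroxine carrier), while Alb and Cps1 had the same score in every mouse. None of the 9 was called with hWJ-MSCs, and their summed score was 989499 to 1203749 in control mice, 677980 to 705436 with Con A + PBS and 712986 to 793250 with hWJ-MSCs. None of the genes of these 4 lists was at 0 in any mouse, and their part in the changes of Cxcl12 and Cxcl13 was not tested.

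Cxcl14 and Cxcl16 had the smallest changes of the family after Con A. Cxcl14 scored 31, 19, 34 and 17 in the control group, 58, 35, 32 and 32 with Con A + PBS, and 50, 31, 75 and 65 with hWJ-MSCs, and each group overlapped each of the others. Only hWJ-MSCs mice, 2 of them, reached 64. After Con A its change was 0.63 with an interval from -0.11 to 1.37 (limma adjusted p = 0.135). With hWJ-MSCs it was called as higher than control (1.09, SE 0.34, limma adjusted p = 0.0235), while the exact permutation test gave p = 0.0857. That call did not hold without control mouse 2 or 4 or without hWJ-MSCs mouse 3 or 4 (limma adjusted p from 0.0607 to 0.077), nor with quantile normalization (0.87, limma adjusted p = 0.0599). The difference between both Con A groups was 0.46 with an interval from -0.287 to 1.199 (limma adjusted p = 0.363).

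Cxcl16 scored 141, 204, 144 and 136 in the control mice, 270, 246, 221 and 232 with Con A + PBS, and 210, 168, 177 and 118 with hWJ-MSCs. The Con A + PBS mice were all above the mice of both other groups. The rise after Con A was 0.65 (SE 0.18, limma adjusted p = 0.0079), 1.56-fold and so just past the fold required. With hWJ-MSCs the change was -0.55 with an interval from -0.93 to -0.17 (limma adjusted p = 0.0563), which was not called, and the difference from control was 0.10 with an interval from -0.29 to 0.48 (limma adjusted p = 0.693). Adam10, a protease that sheds Cxcl16 from the membrane, rose by 0.59 after Con A (limma adjusted p = 0.000152). Cxcl16 overlaps Zmynd15, a gene on the opposite strand, and 21.6% of its 31-base words occur there too. Whether the counting used the strand is not stated, so reads of both genes may not have been told apart, and Zmynd15 moved the other way after Con A (-1.04, limma adjusted p = 0.00936).

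Of 6 proteases of CXC chemokines in the table, of 7 listed, Adam10 included, 3 were higher after Con A and 1 was lower. The shares over all genes were 19.5% and 19.2%. The neutrophil proteases Mmp8 (4.94, limma adjusted p = 8.83e-05) and Mmp9 (4.91, limma adjusted p = 1.64e-05) rose. Both were under 64 in every control mouse, so they had to be higher after Con A to be in the table. Dpp4, which clips Cxcl9, Cxcl10 and Cxcl12 at the amino terminus, fell by 2.18 (limma adjusted p = 5.39e-05). None of the 6 was called with hWJ-MSCs, Dpp4 being at 0.90 (limma adjusted p = 0.0539).

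Compared with control, the livers given hWJ-MSCs had 5 of the 8 CXC chemokines higher (Cxcl1, Cxcl2, Cxcl9, Cxcl10 and Cxcl14) and Cxcl13 lower, while 26.7% of all genes were called, 13.6% as higher and 13.1% as lower. In 4 genes all hWJ-MSCs mice were above all control mice and in 1, Cxcl13, all were below, against 20.6% and 17.3% of all genes. Cxcl1 was at 2.13 (limma adjusted p = 0.000624). Cxcl12 and Cxcl16 were not called. This comparison and the 2 above share mice, so its values are given beside them and are not separate evidence. The mice did not keep one order across the family. In the hWJ-MSCs group mouse 4 had the highest Cxcl1 but the lowest Cxcl9, Cxcl10 and Cxcl16, and mouse 2 had the lowest Cxcl1 and Cxcl2 and the highest Cxcl12. In the Con A + PBS group mouse 4 had the highest Cxcl2, Cxcl10 and Cxcl13 and the lowest Cxcl12.

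The genes whose pattern was most like each member over the 12 mice were ranked by Pearson's r of log2(score + 1), as a description. The 12 mice come from 3 groups, so r rests on the differences between groups as well as on the spread within them. For Cxcl9 the first was Gbp2 (r = 0.995, Spearman's rho = 0.968), followed by Hist1h1d (0.988) and Gbp3 (0.987). For Cxcl10 the first was Actr3 (r = 0.989, rho = 0.979), followed by Map1s (0.985) and Cmpk2 (0.984). For Cxcl2 the first were Actr3 (r = 0.982, rho = 0.974), Cxcl10 (r = 0.982, rho = 0.984) and Tgm2 (0.981), so the only member among the closest genes of another was Cxcl10. The closest were Ppp2r1b for Cxcl1 (r = 0.985, rho = 0.972), Slc17a2 for Cxcl12 (r = 0.980, rho = 0.958) and Slc27a5 for Cxcl13 (r = 0.972, rho = 0.912). Gtf3c6 was the closest to Cxcl14 (r = 0.943, rho = 0.828) and Elf4 to Cxcl16 (r = 0.951, rho = 0.963).

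Neighbouring genes were examined within 100000 bases of each member. Between Cxcl9 and Sdad1, the nearest gene of the table on that side, lay 11307 bases, and Sdad1 rose by 1.18 after Con A (limma adjusted p = 0.000829), far less than Cxcl9. Naaa, the next beyond it, was not called (0.30, limma adjusted p = 0.0653), nor was Nup54, on the side of Cxcl10 (0.18, limma adjusted p = 0.354). Scarb2, 94991 bases from Cxcl10 and named here after its value was seen, rose by 0.87 (limma adjusted p = 0.00235). Med11, 743 bases from Cxcl16, was not called either (0.18, limma adjusted p = 0.23). No gene of the table lay that near to Cxcl12, Cxcl13 or Cxcl14.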

How the data were processed

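Liver mRNA of 12 mice was selected by poly-A, made into libraries with a NEBNext Ultra kit and sequenced as 150-bp paired-end reads by the authors. Bowtie2 2.2.1, RSEM 1.2.18 and mm10 are named in the submitters' processing notes, and the paper names DESeq2 for its own gene calls. The deposited values are a whole-number score per gene and mouse that the authors had already normalized between mice to nearly one distribution, and not raw counts, so no count test was run and the depth, with any counting error, is unknown. How the scores were normalized is not given in the sources used here. Each of the 11289 genes reached 64 in at least 2 mice, so lower genes had been left out.

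Samples were grouped by the labels, which do not pair animals. Scores were analysed as log2(score + 1) with limma 3.58.1 in R 4.3.3 (lmFit, then eBayes with its trend option), fitting the 3 groups of 12 mice together with no covariate, after limma had been tested on simulated data. A call needed a fold change above 1.5 and a limma p under 0.05 after Benjamini-Hochberg adjustment over all genes. Two-sided exact permutation tests were used for the ratios. Python 3.11.15, pandas 2.3.3 and matplotlib 3.10.9 were used for sequences and plots. GENCODE M21 (GRCm38) held all 8 transcripts, 4 of them with the same start and end as in the table.

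The members and lists were chosen with earlier results of these data known. The text names every member, other CXC genes in the table, of each list it describes the first gene found in the table and up to 4 called genes with the largest Con A change, the genes most like each member and the nearest genes within 100000 bases. A gene that meets this rule is not reported here. Of 4 cholangiocyte markers in the table, of 6 listed, 1 rose after Con A, against 19.5% of all genes. Replicate numbers belong to different animals, and same-numbered mice had deviations from their group means that correlated with r from -0.118 to 0.375, so they were not treated as pairs. Alternatives were each mouse left out, the replicate number as a block, the exact permutation test, a fold change above 2, no adjustment of p, a fit of only the 8 mice compared, eBayes without a trend, quantile normalization, median centring, a filter at a mean score of 100 and a pseudocount of 10.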

Additional observations from a re-analysis of the deposited data

Results flagged for a closer look

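Among 24 groups of 4 mice for the members and 6 for the ratios, 3 held a mouse whose gap to the next, divided by the range of the group, passed Dixon's critical value, and chance alone gives about 1 in 20 groups. Control mouse 1 had the lowest Cxcl9 score of its group, 181, with the next at 292 (gap over range 0.860). Con A + PBS mouse 1 had the highest Cxcl14 score, 58, with the next at 35 (0.885). Control mouse 2 had the highest Cxcl16 score, 204, with the next at 144 (0.882).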

How the results depend on the processing

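After Con A the same 7 members were called with a pseudocount of 10, median centring, quantile normalization, the unadjusted p, the exact test and without any 1 mouse. With a fold change above 2 Cxcl16 was lost. For hWJ-MSCs against Con A + PBS the 3 called members were between 0 and 4 when 1 mouse was left out, and between 5 and 6 of the 6 were called against control. A mean score of at least 100 removes Cxcl2, Cxcl13 and Cxcl14 from the test and so left 3 called against control. It left 2 called, Cxcl9 and Cxcl10, for hWJ-MSCs against Con A + PBS. The calls of Cxcl2 and Cxcl13 after Con A were lost with it too. With quantile normalization 4 were called there, Cxcl2 and Cxcl14 being lost (log2 changes of 1.27 and 0.87).

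Of the members' changes, 2 changed sign, both small and not called. Cxcl13 in hWJ-MSCs against Con A + PBS was -0.11 with quantile normalization and between -0.0107 (without Con A + PBS mouse 1) and 0.43 with 1 mouse left out, and Cxcl16 in hWJ-MSCs against control was between -0.0196 (without hWJ-MSCs mouse 1) and 0.26. The cause was not tested.

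With a pseudocount of 10 the Cxcl1 to Cxcl2 ratio differed by -0.97, 1.75 and 0.79 (Con A + PBS against control, hWJ-MSCs against Con A + PBS, hWJ-MSCs against control; the last is reversed) and the Cxcl9 to Cxcl10 ratio by 3.10 and 3.57 for both Con A groups against control, with adjusted p from 0.0571 to 0.103 by exact permutation. With 1 mouse left out, the Cxcl1 to Cxcl2 differences lay between -2.70 and -2.01, between 1.74 and 2.44 and between -0.61 and 0.049, the last value without control mouse 4. Those of Cxcl9 to Cxcl10 lay between 2.53 and 3.31, between 0.18 and 0.95 and between 3.26 and 3.83.

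Fitted with a replicate block, limma called the same 7, 3 and 6 members. In the ratio tests with a replicate block, the differences of -2.44, 2.16, 3.00 and 3.48 had an adjusted p of 0.188 by the exact sign-flip permutation, since 4 pairs cannot go below 0.125.

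Depth is unknown, and the scores near 0 (Cxcl2 in control) and near the top (Cxcl9 after Con A) are the least precise.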
